A study of Mus musculus with 6 samples.

Results

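Mitosis genes were compared between 4T1 mammary carcinoma cells that had survived methotrexate (MTX) and the parental line. The genes were 59 that act in mitotic entry, the spindle assembly checkpoint, the kinetochore, the spindle, chromosome condensation and cell division. They were chosen by symbol, and the brightest probe set of a gene on average over 6 arrays stood for it. A probe set was found for 58 of them, out of 19933 genes tested, and cyclin B1 (Ccnb1) was not analysed here. The genes stood on 18 chromosomes.

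RNA came from cultured 4T1 cells, a BALB/c mouse line. MR13 cells (3 arrays) are the outgrowth of 4T1 cells kept in MTX, a folate antagonist that stops nucleotide synthesis, at 13 µg/ml for up to 2 weeks by the sample labels, until colonies of survivors were seen. A different dose and a longer exposure are stated in the study's own text, which adds that survivors were recovered without the drug. Whether MTX was in the culture at RNA extraction is not given in the labels. WTR- cells (3 arrays) are untreated 4T1 cells. The study asked what sets the transcripts of chemotherapy survivors apart. MR13 is 1 selected line, and the labels describe wells of each line, so p values measure how much wells varied, not how much separate selections would.

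The deposited log2 values ran from 2.42 to 14.39, with array medians of 6.57 to 6.62. None of the 58 genes was among the dimmest 30% of genes. Of 6 epithelial markers, 5 fell in MR13 and Krt8 was not called. The log2 differences were -4.52 for Krt7, -4.30 for Epcam, -3.23 for Cdh1, -2.23 for Krt19 and -0.19 for Krt18, and the median log2 level of the 6 was 8.18 to 8.38 in MR13 and 11.80 to 11.90 in WTR-. Their summed level, in which the brightest markers weigh most, was 14.23 to 14.35 in MR13 and 14.88 to 14.97 in WTR- on the log2 scale. Of 8 myeloid markers, 1 rose and 6 were among the dimmest genes. None of 5 lymphocyte markers and none of 6 endothelial markers was called by limma. Of 7 fibroblast markers, 2 rose, Pdgfra by 1.82 and Dcn by 1.70 on the log2 scale. The other 5 were not called, and the median log2 difference of the list was 0.09. The summed level of the list was 10.63 to 10.81 in MR13 against 9.50 to 9.60 in WTR-. Pdgfra, the brightest of them in both groups, weighed most in this sum. The part of these marker differences in the results below was not tested.

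A cell enters mitosis when cyclin A and cyclin B activate the kinase CDK1. The spindle assembly checkpoint then holds anaphase back until every kinetochore, the protein platform on a centromere, has bound microtubules. When it is satisfied, CDC20 activates a ubiquitin ligase, the anaphase-promoting complex, which destroys securin and cyclin B, so that sister chromatids part and the cell divides. Most genes of this program are transcribed late in the cell cycle. The MuvB complex, joined by B-MYB and FOXM1, switches them on through a promoter element named CHR (cell cycle genes homology region), often with CCAAT boxes bound by NF-Y, and the DREAM complex represses them in resting cells.

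The promoters are shown because this shared element sits in most of them. RefSeq promoter windows of assembly GRCm38.p6 (250 bases before to 50 after an annotated start) were found for 49 of the 58 genes. They were searched on both strands for the CHR hexamers TTTGAA and TTCGAA and for CCAAT. The stretches of the 3 genes below run from 120 bases before to 30 after the start, with CHR hexamers and CCAAT boxes (or their reverse complements) in capitals.
Ttk, chr9:83834569-83834718, strand plus: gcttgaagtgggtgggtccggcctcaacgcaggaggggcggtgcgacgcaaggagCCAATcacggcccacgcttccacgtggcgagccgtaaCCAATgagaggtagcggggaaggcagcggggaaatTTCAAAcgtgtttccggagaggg
Spc25, chr2:69206184-69206333, strand minus: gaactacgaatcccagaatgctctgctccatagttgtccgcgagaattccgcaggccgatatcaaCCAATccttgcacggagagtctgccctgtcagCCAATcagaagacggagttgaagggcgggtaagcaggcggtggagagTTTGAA
Cdc25b, chr2:131186828-131186977, strand plus: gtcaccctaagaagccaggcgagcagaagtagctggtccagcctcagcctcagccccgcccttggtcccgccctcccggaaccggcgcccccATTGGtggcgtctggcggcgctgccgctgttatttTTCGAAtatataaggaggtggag
In each of them the CHR hexamer lies just after the start, and at least 1 CCAAT box lies shortly before it.

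Short stretches around the CHR hexamer, of at most 30 bases and in the same assembly, follow for other genes. The first 6 genes rose in MR13, Cdk1 and Ect2 fell, and Kif23 was not called.
Bub1b, chr2:118598239-118598260, strand plus: agagacgttaaaTTTGAAactt
Aurka, chr2:172370521-172370550, strand minus: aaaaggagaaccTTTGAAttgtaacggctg
Cenpf, chr1:189688067-189688096, strand minus: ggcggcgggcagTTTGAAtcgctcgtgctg
Plk1, chr7:122159453-122159482, strand plus: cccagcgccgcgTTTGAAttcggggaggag
Cdc20, chr4:118437344-118437373, strand minus: agacagttgggtTTTGAAggagCCAATgaa
Ccnb2, chr9:70421533-70421562, strand minus: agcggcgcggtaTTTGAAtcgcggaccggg
Cdk1, chr10:69352910-69352939, strand minus: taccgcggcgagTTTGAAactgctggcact
Ect2, chr3:27153822-27153851, strand minus: cgactggattttTTTGAAtcggaggcggca
Kif23, chr9:61946780-61946809, strand minus: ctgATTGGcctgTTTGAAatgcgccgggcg
Cenpf was the only member in which the hexamer followed GGCGG at a distance of 4 bases, the spacing of the classical tandem of CDE (cell cycle dependent element) and CHR, which 0.0961% of all tested genes with a window held. Cdk1, Ect2 and Kif23 carry the same hexamer, also close to the start, as genes that rose.

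A CHR hexamer stood within 50 bases of the start in 32 of 49 genes (65.3%), against 803 of 15610 tested genes with a window (5.14%). A CCAAT box stood in the window of 34 of 49 genes (69.4%), against 41.7% of all genes, and the CHR near the start together with CCAAT was found in 27 (55.1%), against 2.31%. A hexamer and an inverted CCAAT box can share a base, as in Cdca8. A match describes letters and does not show that a factor binds there.

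**Figure D1:**
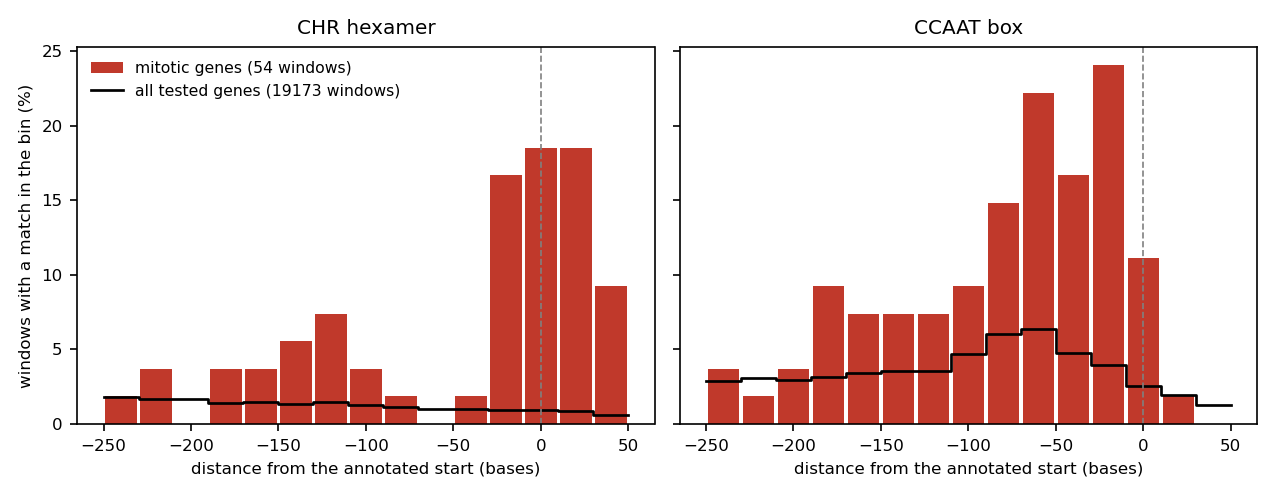
Share of promoter windows (y axis, %) with a CHR hexamer (left) or a CCAAT box (right) starting in each 20-base bin, by distance from the annotated start (x axis, bases). Red bars are the 54 windows of the mitotic genes (some genes have several starts), and the black line is all 19173 windows of tested genes. The CHR bars peak at 18.52% between 10 bases before and 30 bases after the start, where the line lies at 0.95% or lower, and the CCAAT bars peak just before the start.

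Across the 58 measured genes, 38 rose in MR13, 6 fell and 14 were not called at an adjusted p under 0.05 (limma, two-sided, adjusted over all genes). Of all 19933 genes, 17.0% were called higher and 20.6% lower. All genes include the 5980 dimmest, which hold none of the 58. With the dimmest 30% left out, 3431 genes were called higher and 4209 lower. These are more calls among fewer genes, so the shares over brighter genes are higher than those over all genes. The median log2 difference (MR13 minus WTR-) of the mitotic genes was 0.26, a 1.2-fold difference, against 0.01 over all genes. The differences were small, from -0.37 (Mad2l1) to 0.71 (Ttk, 1.63-fold). None of the 58 genes reached 2-fold, and 6 of the 58 rose at least 1.5-fold, namely Ttk, Ncaph, Bub1b, Nusap1, Tpx2 and Spc25. Over all 19933 genes the share that did so was 4.65%. The 2 groups of arrays did not overlap for 46 of the 58 genes, with MR13 above WTR- for 39 and below it for 7. Over all genes the groups did not overlap for 47.4%, with MR13 above for 22.2% and below for 25.2%. In RNA from whole cultures, more cells in mitosis and more RNA in each such cell cannot be told apart. The study itself reported that MR13 cells proliferated less in culture than the parental line. It also reported smaller primary tumors from MR13 cells in mice. How the higher RNA of mitotic genes relates to this lower proliferation was not tested.

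**Figure D2:**
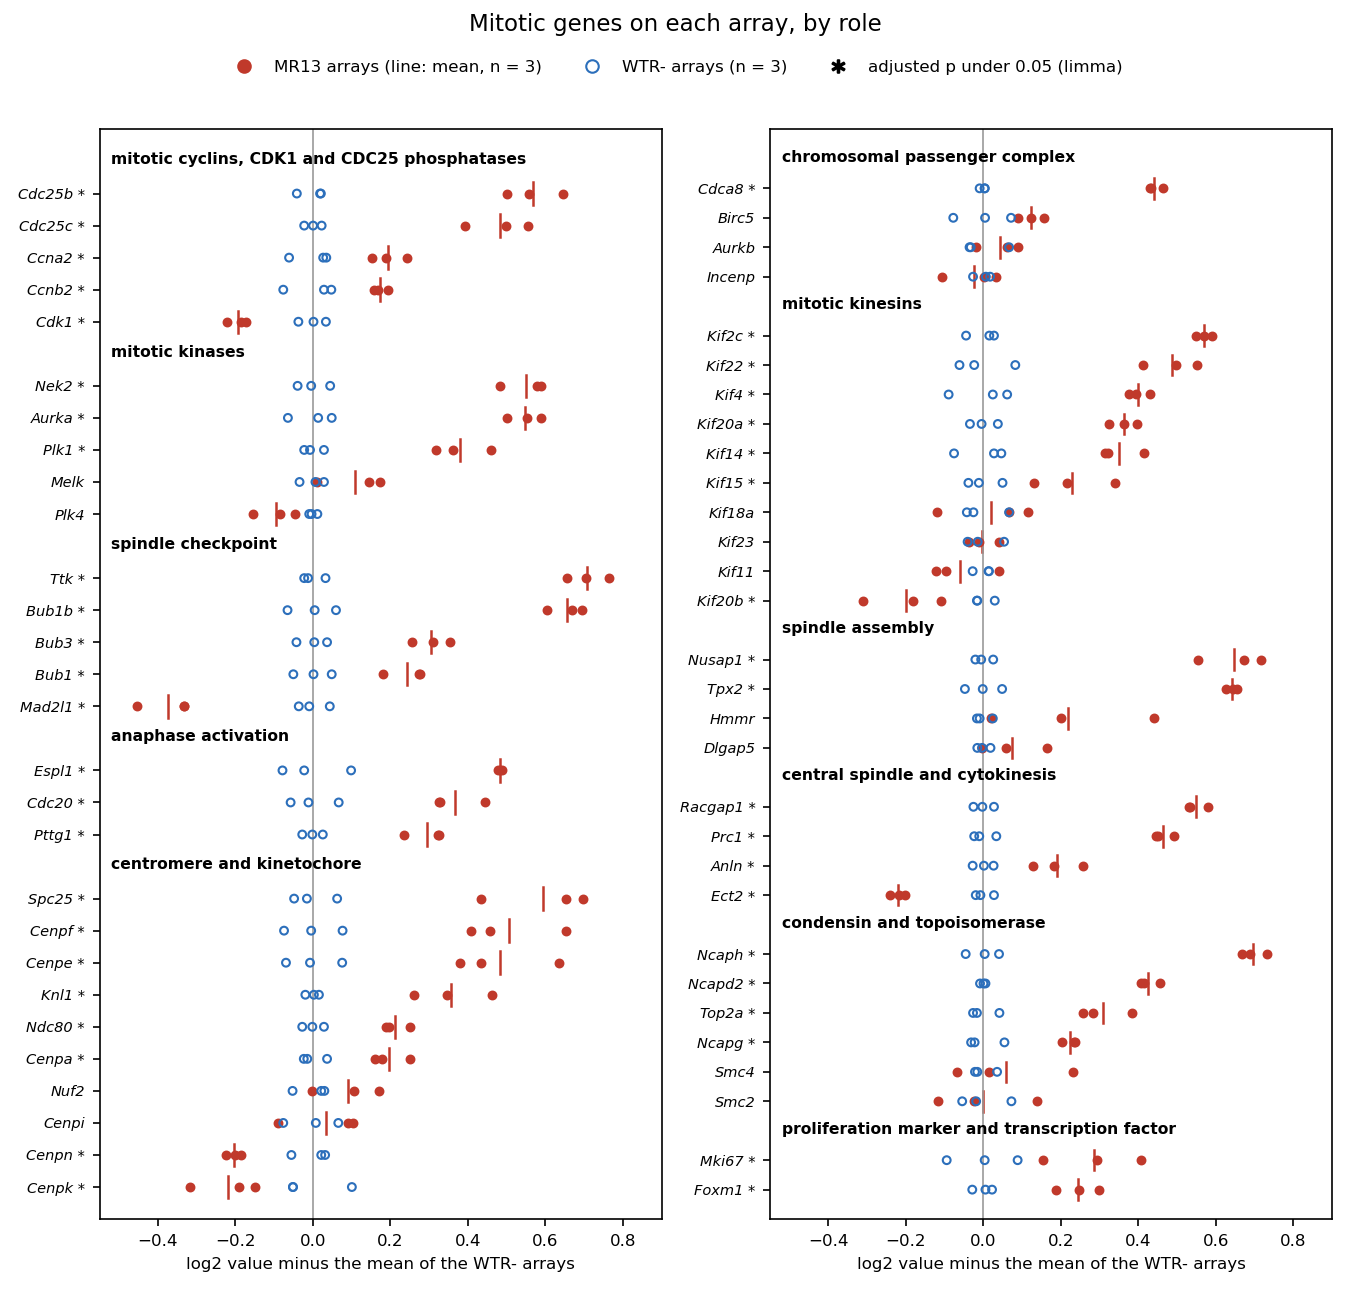
Log2 value minus the mean of the WTR- arrays (x axis) for each of the 58 measured genes (y axis, grouped by role). Filled red points are MR13 arrays with a line at their mean (n = 3), open blue points are WTR- arrays (n = 3), and a star marks an adjusted p under 0.05. Most red points lie to the right, up to 0.71 on average for Ttk, and those of Mad2l1, Cdk1, Ect2, Cenpn, Cenpk and Kif20b to the left.

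Of the genes that drive mitotic entry, 4 of 5 rose and Cdk1 fell. Cdc25b, a phosphatase that removes inhibitory phosphates from CDK1, had log2 values of 10.45, 10.54 and 10.39 in MR13, against 9.91, 9.85 and 9.91 in WTR- (difference 0.57, SE 0.06, adjusted p = 5.57e-05). Its relative Cdc25c had 9.57, 9.47 and 9.63 in MR13, against 9.05, 9.10 and 9.08 in WTR- (difference 0.48, SE 0.06, adjusted p = 1.66e-04). The groups were well apart for each phosphatase. Cdk1 itself, the kinase they activate, had 12.52, 12.55 and 12.57 in MR13, against 12.70, 12.74 and 12.77 in WTR- (difference -0.19, SE 0.05, adjusted p = 0.0144). It was lower in every MR13 array, but the call was lost after quantile normalization (-0.12, adjusted p = 0.0721). The cyclins rose little, Ccna2 by 0.19 and Ccnb2 by 0.17 on the log2 scale. Ccna2 lost its call without MR13 replicate 3 (adjusted p = 0.0805) or WTR- replicate 3 (0.0665). Ccnb2 lost its call without any of the arrays other than WTR- replicate 1, with adjusted p values of 0.0572, 0.0852 and 0.0811 without MR13 replicates 1, 2 and 3 and of 0.0616 and 0.102 without WTR- replicates 2 and 3.

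Among mitotic kinases, 3 of 5 rose. Nek2, which helps to part the centrosomes, had 10.12, 10.23 and 10.22 in MR13, against 9.60, 9.69 and 9.64 in WTR- (difference 0.55, SE 0.06, adjusted p = 5.64e-05). Aurka, the aurora kinase of spindle poles, had 11.35, 11.40 and 11.43 in MR13, against 10.86, 10.78 and 10.89 in WTR- (difference 0.55, SE 0.05, adjusted p = 5.88e-05). The groups did not overlap for either kinase. Plk1, a kinase of mitotic entry and spindle formation, rose by 0.38 (SE 0.06). Melk, a kinase of the AMPK family (0.11, 95% CI -0.03 to 0.25) and Plk4, the kinase that starts centriole duplication (-0.09, 95% CI -0.21 to 0.02), were not called.

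Of 5 spindle checkpoint genes, 4 rose and Mad2l1 fell. Ttk, also called MPS1, is the kinase that starts checkpoint signalling at unattached kinetochores. It had 10.15, 10.04 and 10.09 in MR13, against 9.42, 9.38 and 9.37 in WTR- (1.63-fold, adjusted p = 9.41e-06). Bub1b encodes BUBR1, which binds and inhibits CDC20. It had 10.30, 10.39 and 10.36 in MR13, against 9.75, 9.70 and 9.63 in WTR- (1.58-fold, adjusted p = 2.16e-05). The gap between groups was many times the spread within them for these 2 genes. Bub3, the partner of BUB1 and BUBR1 (0.31, SE 0.05), and the kinase gene Bub1 (0.24, SE 0.05) rose less. Mad2l1 encodes MAD2, which forms the inhibitory mitotic checkpoint complex with BUBR1, BUB3 and CDC20. It had 12.12, 12.00 and 12.12 in MR13, against 12.45, 12.42 and 12.50 in WTR- (difference -0.37, SE 0.06, 1.29-fold lower, adjusted p = 7.20e-04). It was the gene that fell the most, with every MR13 value below every WTR- value. Its 95% CI, -0.50 to -0.24, lay apart from those of the other 4 checkpoint genes, of which the lowest began at 0.12 (Bub1). Neither a CHR hexamer nor a CCAAT box was in its window.

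All 3 genes of anaphase activation rose. Espl1, which encodes separase, the protease that cuts cohesin, had 8.90, 8.90 and 8.89 in MR13, against 8.51, 8.34 and 8.39 in WTR- (difference 0.48, SE 0.06, adjusted p = 1.90e-04). The MR13 arrays were nearly alike, and the WTR- arrays spread more. Cdc20, the checkpoint's target, rose by 0.37 (SE 0.06, adjusted p = 0.00105), and Pttg1, which encodes securin, the inhibitor of separase, by 0.30 (SE 0.05, adjusted p = 0.00175).

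**Figure D3:**
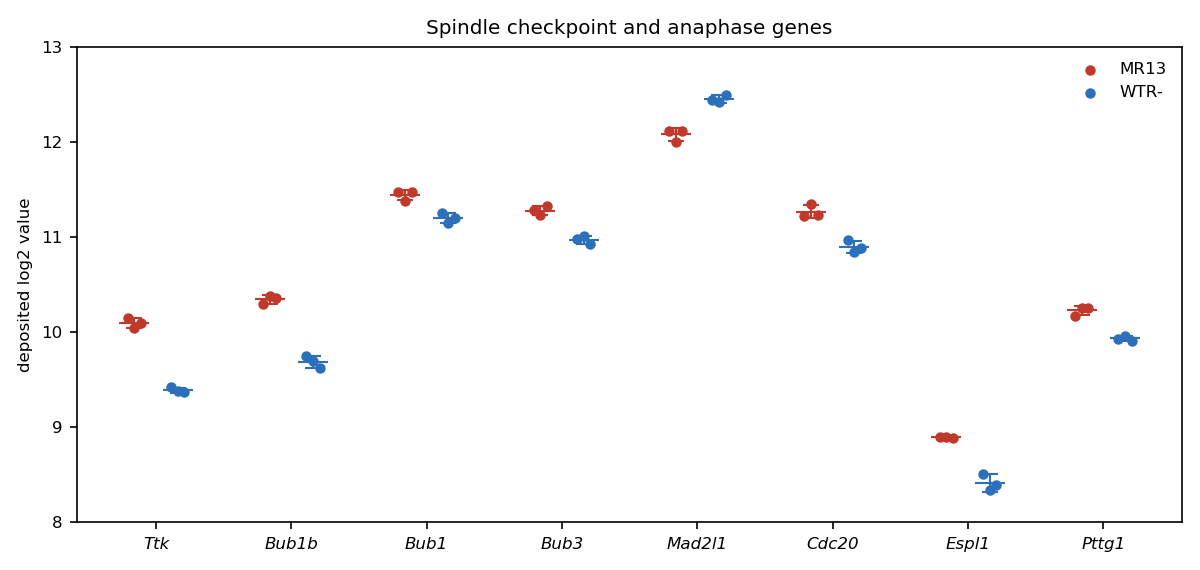
Deposited log2 values (y axis, starting at 8) of 5 spindle checkpoint genes and 3 genes of anaphase activation (x axis). Points are arrays, 3 of MR13 in red left of 3 of WTR- in blue, and lines with bars are means and SDs. MR13 lies above WTR- for 7 genes and below it for Mad2l1, at 12.08 in MR13 and 12.45 in WTR-.

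At the centromere and kinetochore 6 of 10 genes rose and 2 fell. Spc25, a subunit of the NDC80 complex that binds microtubules, had 9.41, 9.19 and 9.45 in MR13, against 8.71, 8.82 and 8.74 in WTR- (difference 0.59, SE 0.08, adjusted p = 2.49e-04). Cenpf, a large protein of the outer kinetochore, had 9.70, 9.46 and 9.50 in MR13, against 9.12, 9.04 and 8.97 in WTR- (difference 0.51, SE 0.08, adjusted p = 6.29e-04). MR13 replicate 2 was the lowest MR13 array for each, still above the WTR- arrays. The motor gene Cenpe (0.48, SE 0.08) and the scaffold gene Knl1 (0.36, SE 0.06) also rose. Of the other subunits of the NDC80 complex, Ndc80 rose by 0.21 (SE 0.05), and Nuf2 was not called (0.09, 95% CI -0.05 to 0.23). Cenpa, the histone variant that marks centromeres, rose by 0.20. Its call was lost without MR13 replicate 3 (adjusted p = 0.0669) or WTR- replicate 2 (0.0584).

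The 2 genes that fell at the kinetochore both encode subunits of the inner complex that sits on CENP-A chromatin. Cenpn had 10.78, 10.82 and 10.81 in MR13, against 11.04, 11.03 and 10.95 in WTR- (difference -0.20, SE 0.05, adjusted p = 0.0121). Cenpk had 8.45, 8.29 and 8.41 in MR13, against 8.55, 8.55 and 8.70 in WTR- (difference -0.22, SE 0.07, adjusted p = 0.0324). The groups were apart for each. The Cenpk call was lost after quantile normalization (-0.14, adjusted p = 0.14) and without MR13 replicate 2 (0.106), MR13 replicate 3 (0.063) or WTR- replicate 3 (0.102), and under the unpaired test of the study's methods, run gene by gene (0.0991). Cenpi, of the same inner complex, was not called (0.04, 95% CI -0.12 to 0.19).

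In the chromosomal passenger complex, which corrects faulty attachments and guides division, 1 of 4 genes rose. Cdca8, which encodes borealin, had 10.14, 10.13 and 10.17 in MR13, against 9.69, 9.71 and 9.71 in WTR- (difference 0.44, SE 0.05, adjusted p = 8.82e-05). The arrays of each group lay close together, far from those of the other. Its partners were not called, with differences of 0.12 for Birc5 (survivin, 95% CI -0.01 to 0.25), 0.04 for the kinase gene Aurkb (95% CI -0.08 to 0.17) and -0.02 for the scaffold gene Incenp (95% CI -0.15 to 0.10). The interval of Cdca8, 0.33 to 0.55, lay above these 3.

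Of 10 mitotic kinesin genes, 6 rose and Kif20b fell. Kif2c encodes MCAK, which takes microtubules apart at centromeres. It had 10.58, 10.63 and 10.60 in MR13, against 10.06, 10.05 and 9.99 in WTR- (difference 0.57, SE 0.05, adjusted p = 2.54e-05). Kif22, a motor that rides on chromosome arms, had 9.91, 10.05 and 10.00 in MR13, against 9.44, 9.58 and 9.48 in WTR- (difference 0.49, SE 0.06, adjusted p = 2.39e-04). The groups were far apart for both. Smaller rises were seen for Kif4 (0.40), another chromosome-bound motor, Kif20a (0.36) and Kif14 (0.35), motors of cytokinesis, and Kif15 (0.23), which helps to keep spindle poles apart. The Kif15 call was lost without MR13 replicate 1 (adjusted p = 0.0607), MR13 replicate 3 (0.0535), WTR- replicate 2 (0.0649) or WTR- replicate 3 (0.0647), and under the methods' unpaired test (0.0719). A second, dim probe set of Kif14 had means of 3.74 in MR13 and 3.74 in WTR- (adjusted p = 0.963), and the mean of both probe sets differed by 0.17 (adjusted p = 0.0451). Kif20b, a motor of late mitosis, had 8.82, 8.62 and 8.75 in MR13, against 8.96, 8.92 and 8.92 in WTR- (difference -0.20, SE 0.06, adjusted p = 0.0334). The MR13 arrays were all lower, but the call was lost after quantile normalization (adjusted p = 0.165), under the methods' unpaired test (0.0818) and without any array other than MR13 replicate 1, with adjusted p values of 0.0965 and 0.0711 without MR13 replicates 2 and 3 and of 0.0953, 0.0726 and 0.0628 without WTR- replicates 1, 2 and 3. Kif11, the motor EG5 that pushes spindle poles apart, was not called (-0.06, 95% CI -0.19 to 0.08), nor were Kif18a, which dampens chromosome movement (0.02, 95% CI -0.14 to 0.18), and Kif23, a motor of the central spindle (-0.00, 95% CI -0.12 to 0.12).

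Of 4 spindle assembly genes, 2 rose. Nusap1, which bundles microtubules near chromosomes, had 11.56, 11.40 and 11.52 in MR13, against 10.83, 10.87 and 10.84 in WTR- (difference 0.65, SE 0.06, adjusted p = 2.86e-05). Tpx2, the activator of aurora A on the spindle, had 11.10, 11.09 and 11.07 in MR13, against 10.49, 10.40 and 10.44 in WTR- (difference 0.64, SE 0.05, adjusted p = 1.38e-05). Tpx2 and its kinase Aurka were thus both higher on every MR13 array. Hmmr, a spindle protein first known as a hyaluronan receptor, had 10.12, 9.70 and 9.89 in MR13, against 9.67, 9.68 and 9.71 in WTR-. It had the widest MR13 spread of the 58 genes (SD 0.21, n = 3) and was not called (0.22, adjusted p = 0.11). Its difference was 0.11 without MR13 replicate 1 (adjusted p = 0.28), and it passed without MR13 replicate 2 (0.32, adjusted p = 0.0169) and with a trended prior (adjusted p = 0.0405). Dlgap5, also called HURP, was not called (0.07, 95% CI -0.06 to 0.21).

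At the central spindle and in cytokinesis, 3 of 4 genes rose and Ect2 fell. Racgap1, a subunit of the centralspindlin complex, had 11.82, 11.77 and 11.77 in MR13, against 11.26, 11.21 and 11.23 in WTR- (difference 0.55, SE 0.05, adjusted p = 2.93e-05). The motor subunit of the same complex is Kif23, whose interval around zero was given above. Prc1, which crosslinks the central spindle, had 10.81, 10.80 and 10.85 in MR13, against 10.39, 10.33 and 10.35 in WTR- (difference 0.46, SE 0.05, adjusted p = 8.54e-05). Ect2, the RHOA activator that centralspindlin recruits to place the cleavage furrow, had 11.82, 11.78 and 11.80 in MR13, against 12.05, 12.00 and 12.01 in WTR- (difference -0.22, SE 0.05, adjusted p = 0.00613). Replicates were tight for each of these 3 genes, so that the groups did not overlap in either direction. Anln, the furrow scaffold anillin, rose by 0.19. Its call was lost without MR13 replicate 1 (adjusted p = 0.0628), MR13 replicate 3 (0.0607), WTR- replicate 2 (0.0792) or WTR- replicate 3 (0.0514).

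Of the condensin genes, those of the regulatory subunits rose, and those of the ATPase core were not called. Condensin I folds chromosomes with an SMC2 and SMC4 core and the subunits NCAPD2, NCAPG and NCAPH. Ncaph had 11.27, 11.21 and 11.23 in MR13, against 10.58, 10.55 and 10.50 in WTR- (1.62-fold, adjusted p = 8.95e-06), the lowest adjusted p of the 58 genes. Ncapd2 had 9.92, 9.97 and 9.93 in MR13, against 9.52, 9.52 and 9.51 in WTR- (difference 0.43, SE 0.05, adjusted p = 1.20e-04). Ncapg rose by 0.22 (SE 0.05, 95% CI 0.11 to 0.34). Smc2 had 10.64, 10.38 and 10.47 in MR13, against 10.57, 10.44 and 10.48 in WTR-, the smallest difference of all (-0.00, 95% CI -0.17 to 0.17). The groups overlapped for Smc2, and Smc4 was not called either (0.06, 95% CI -0.12 to 0.24). The interval of Ncapg overlapped those of Smc2 and Smc4, and the difference between the subunits and the core was not tested. The 3 regulatory subunits of condensin II, which are not among the 58 genes and share the same core, all rose, Ncaph2 by 0.53, Ncapd3 by 0.48 and Ncapg2 by 0.26. Top2a, the topoisomerase that untangles sister chromatids, rose by 0.31 (SE 0.06). A second, dim probe set of Top2a differed by -0.27 (adjusted p = 0.0787), and the mean of both probe sets by 0.02 (adjusted p = 0.854).

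Mki67, the gene of the proliferation marker Ki-67, had 11.41, 11.16 and 11.30 in MR13, against 11.09, 11.01 and 10.91 in WTR- (difference 0.29, SE 0.08, adjusted p = 0.017). Its arrays spread widely but did not overlap between groups, and the call was lost without MR13 replicate 1 (adjusted p = 0.0617), MR13 replicate 3 (0.051) or WTR- replicate 3 (0.0577), and under the methods' unpaired test (0.0889). Foxm1, the transcription factor that activates late cell cycle genes, rose by 0.24 (SE 0.05, adjusted p = 0.00551).

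Genes with a wide spread in MR13 shared the order of their arrays, a pattern described after its values were seen. The SD in MR13 reached at least 0.1 for 12 of the 58 genes, among them Hmmr, Smc4, Spc25, Cenpe, Cenpf, Smc2 and Mki67. MR13 replicate 2 was the lowest of the 3 arrays for all 12, and MR13 replicate 1 the highest for 11. Over all 58 genes the order was less uniform. Replicate 2 was the lowest for 34 and the highest for 15, and replicate 1 the highest for 29 and the lowest for 15. Of the 6068 genes of the whole table with such an SD, replicate 2 was the lowest for 22.3% and replicate 1 the highest for 26.9%. The median difference of the 58 genes was 0.30 without MR13 replicate 2, and 32 to 38 genes were called higher when any array was left out, with 4 to 6 called lower. The median SD of the genes was 0.06 in MR13 and 0.04 in WTR-, against 0.07 and 0.07 over all genes.

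Other genes of mitosis were counted in lists that hold none of the 58. Together 37 of 106 measured genes rose (34.9%) and 20 fell (18.9%), with a median of 0.06. Centrosome and spindle pole genes rose for 10 of 16 (62.5%) and fell for 1 (median 0.20), with Cenpj, a centriole length factor, at 0.42 and Cep55, a scaffold of abscission, at -0.58. Of 14 genes of mitotic entry and exit, 5 rose (35.7%) and 2 fell (14.3%). Gtse1, a microtubule and p53-binding protein of G2, rose by 0.80 (SE 0.06), and the phosphatase gene Cdc14b fell by 0.56. Of 16 cohesin genes, which hold sister chromatids together, 6 rose (37.5%) and 3 fell (18.8%), with the kleisin Rad21 at 0.48 and the loader Mau2 at -0.60.

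In 18 genes of the anaphase-promoting complex and its regulators, 2 rose (11.1%) and 4 fell (22.2%), against 17.0% and 20.6% of all genes. Their median was 0.01. The largest differences among those called were in the subunits Anapc10 (-0.68) and Anapc16 (-0.45). Named after their values were seen, the subunit Cdc16 (-0.34) and the inhibitor Fbxo5 (-0.32) also fell. The genes that rose were the subunit Anapc1 (0.37) and the ubiquitin-conjugating enzyme gene Ube2c (0.33). Of 27 other kinetochore and centromere genes 9 rose (33.3%) and 6 fell (22.2%), with a median of 0.05. Cenpm rose by 0.63 and Cenph fell by 0.50. Of inner kinetochore genes named after their values were seen, Cenpw (-0.48) and Cenpt (-0.17) fell, while Cenpl (0.23) and Cenpp (0.29) rose, so that members of this complex moved in both directions. Among 12 regulators of MuvB, DREAM and B-MYB, 2 rose (16.7%, against 17.0% of all genes) and 4 fell (33.3%, against 20.6%). E2f4 (-0.55) and the pocket protein p130, Rbl2 (-0.47), which join in DREAM, were lower. The other genes that fell were the MuvB subunit Lin54 (-0.30) and E2f5 (-0.26). Chosen with their values known, the genes that rose were the other pocket protein of DREAM, p107 (Rbl1, 0.22), and the MuvB subunit Rbbp4 (0.16). The MuvB subunit Lin9 (0.04, adjusted p = 0.7) and Mybl2, which encodes B-MYB (0.06, adjusted p = 0.44), were not called.

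Genes of the preceding cell cycle phases were set beside these. Of 41 DNA replication and E2F genes, 14 rose and 9 fell (22.0%), with a median of 0.04, and Rrm2, the ribonucleotide reductase subunit, was at 0.65 and the primase gene Prim1 at -0.69. Of 13 measured genes of G1 cyclins, CDKs and CDK inhibitors, 5 rose and 4 fell (30.8%), with a median of 0.03, and Rb1 was at 0.88 and Ccnd2 at -2.65. The share called higher was 65.5% for the 58 mitotic genes, 34.1% for replication genes and 38.5% for G1 genes, and the difference between these shares was not tested.

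**Figure D4:**
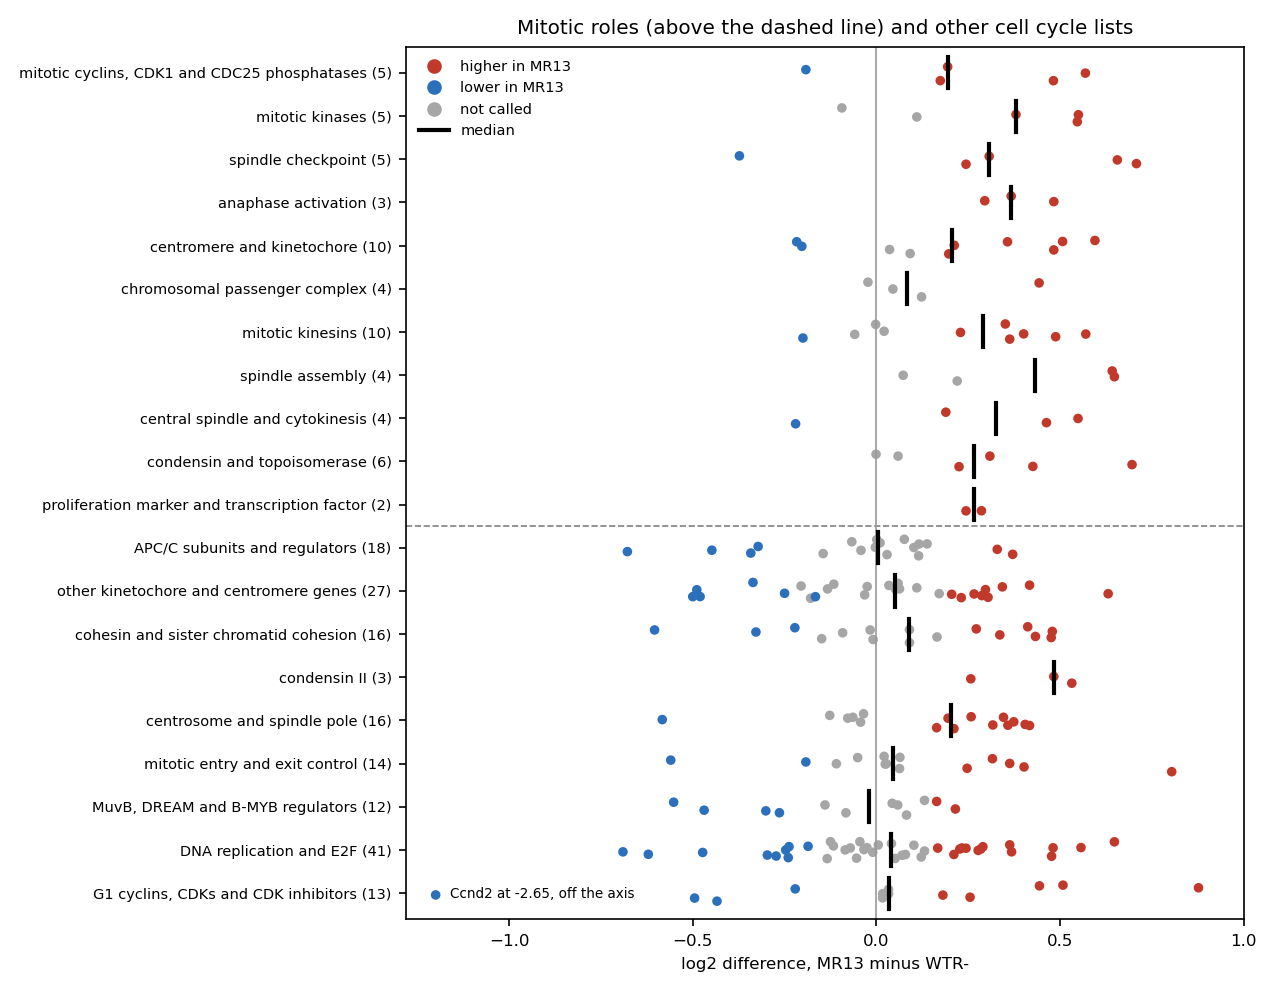
Differences in log2 level (x axis, MR13 minus WTR-) by gene, for the 11 roles of the mitotic genes (above the dashed line) and 9 other cell cycle lists (below it), with the number of genes in brackets. Points are genes, in colours for higher, lower and not called, black bars mark medians, and Ccnd2 (-2.65) is drawn at the axis edge. All 11 role medians lie to the right of 0, from 0.08 for the chromosomal passenger complex to 0.43 for spindle assembly, while that of the MuvB and DREAM regulators lies at -0.02.

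Differences were then read against the promoter letters shown above. Of the 32 genes with a CHR hexamer within 50 bases of the start, 24 rose, with a median of 0.31, and of the 17 with a window but no such hexamer 9 rose, with a median of 0.29. With the hexamer anywhere in the window the split was wider, with 28 of 36 genes higher (median 0.33) against 5 of 13 without it (median 0.11). These splits were not tested. Of the 27 with the hexamer within 50 bases of the start and CCAAT as well, 20 rose (median 0.37). Of the other 22 with a window, 13 rose (median 0.22), and this split was not tested either. Of the genes that fell, Cdk1, Ect2, Cenpn and Kif20b carry the hexamer near the start, and Mad2l1 and Cenpk do not. Among the 9 genes that rose without a hexamer near the start were Ncaph and Nusap1. Outside the 58 genes, 334 tested genes had the CHR near the start and CCAAT, of which 13.2% were higher and 15.9% lower (median 0.00), against 17.4% and 20.9% of all 15561 other genes with a window.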

How the data were processed

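Biotin-labelled total RNA was measured on Affymetrix Mouse Gene 1.0 ST arrays. The authors deposited log2 values per probe set, normalized between arrays. Per the labels they used the R packages affy and limma. Versions, background correction, summarization and normalization methods are not given in the sources used here. Of 28350 probe sets, 21780 had 1 gene symbol in the platform annotation, and the brightest probe set of each symbol gave 19933 genes (no symbol changed through Entrez identifiers). No column of another series was present (0). For arrays, their number limits the precision.

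MR13 was compared with WTR- by limma 3.58.1 in R 4.3.3 (lmFit and eBayes, no covariate), with Benjamini-Hochberg adjustment over all genes and calls under 0.05. SE and 95% CI come from this fit. The scripts were tested on simulated data. Full values are given for the called genes with the largest differences in each role (1 or 2), for every gene that fell and for the smallest difference, and of each other list the 2 called genes with the largest differences and groups apart are named. Members and lists were chosen with earlier results of these data known. Alternatives were a further quantile normalization, median centring, leaving out the dimmest 30% of genes or each array, averaging all probe sets of a gene, a trended robust prior, the replicate number as a block, and the unpaired test in the study's methods. Promoter windows came from RefSeq (GRCm38.p6).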

Additional observations from a re-analysis of the deposited data

How the results depend on the processing

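The number of genes called higher lay between 32 and 39 in all 13 alternatives, and the median difference between 0.235 and 0.30 when 1 array was left out. The number called lower fell to 3 after a further quantile normalization, and Cdk1, Kif20b and Cenpk lost their calls. Under all alternatives 41 of the 58 genes, 31 of them higher, held their call and direction. Directions turned only for genes that were not called. After quantile normalization Incenp was at 0.017, Kif23 at 0.003 and Smc2 at 0.009. With 1 array left out the ranges were -0.002 to 0.098 for Cenpi, -0.051 to 0.018 for Incenp, -0.027 to 0.091 for Kif18a, -0.024 to 0.025 for Kif23, -0.071 to 0.057 for Smc2 and -0.027 to 0.123 for Smc4. The methods' t-test called 45 genes before and 36 higher and 4 lower after Benjamini-Hochberg adjustment, and Kif15, Kif20b, Cenpk and Mki67 lost their calls. The cause of these changes was not tested.

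Arrays of the same replicate number did not deviate together in every pair (correlations of 0.128, -0.001 and 0.182), so the numbers were not taken as pairs. With the replicate block 37 genes were called higher and 6 lower, and Ccnb2 lost its call (adjusted p = 0.0501). Detection calls were not used here, and differences of this size rest on replicate SDs near 0.05.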
